A study of Homo sapiens with 16 samples.

Results

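The replication-dependent histone genes, which supply core and linker histones during DNA synthesis, lie in runs on chromosomes 6 and 1. The regions described here are all 686 regions, of 1255311 in 7 tables, that overlapped any of 3 intervals of the human genome build hg19. These were chr6:26000000-26300000, called the larger chromosome 6 cluster, chr6:27750000-27900000, called the smaller chromosome 6 cluster, and chr1:149780000-149880000, the chromosome 1 cluster. Membership was set by position alone, and no region crossed an edge of an interval. The members were 76 CTCF, 80 RAD21, 92 SMC1, 165 H3K27Ac, 80 Pol2Ser5, 113 Pol2Ser2 and 80 TotalRNAPol2 regions.

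The study set DKO cells, derived from HCT116 by disrupting DNMT1 and DNMT3B, which encode DNA methyltransferases, against HCT116, a line from a colorectal carcinoma, under a title that links DNA methylation to the choice of polyadenylation site through CTCF and cohesin. Both lines were grown in McCoy's 5A medium with fetal bovine serum and fixed with formaldehyde, and no treatment is named for either. Chromatin immunoprecipitation was sequenced with 1 library per line for each of 7 targets: CTCF, a DNA-binding protein; RAD21 and SMC1, subunits of cohesin; acetylation of lysine 27 on histone H3 (H3K27Ac); and 3 polymerase targets. The polymerase targets are RNA polymerase II with phosphate on serine 5 (Pol2Ser5) or on serine 2 (Pol2Ser2) of the repeat at its C terminus, and polymerase II in all forms (TotalRNAPol2). The sample titles call the last pair of libraries total polymerase, whereas their antibody label names the serine 5 form, so Pol2Ser5 and TotalRNAPol2 may not be separate measurements. DKO is a single derived line, and differences between the clones other than the disrupted genes cannot be told apart from the loss of the enzymes.

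Nearly all histone genes of these runs lack introns, and their messages end in a stem-loop made by a cleavage machinery of their own instead of in a poly(A) tail. Their transcription is tied to the S phase of the cell cycle and takes place in nuclear bodies that gather the transcription and processing factors. Serine 5 phosphorylation marks polymerase that has begun a transcript, while serine 2 phosphorylation builds up as polymerase elongates and is high toward poly(A) sites. H3K27Ac marks active promoters and enhancers, and CTCF and cohesin hold chromatin loops.

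In RefSeq's order of genes on GRCh38.p14, the larger run on chromosome 6 (H1-1 to H4C8) held 32 histone genes, with 5 for H1, 4 for H2A, 8 for H2B, 7 for H3 and 8 for H4. The smaller run (H2BC13 to H2BC17) held 16, and the run on chromosome 1 (H2BC18 to H2AC21) held 11. These genes were not placed on the regions, because the files use hg19 and no hg19 annotation was used here. Promoters were found for 55 of the 59 genes, and the first listed was taken where a gene had several. One for each histone type in the larger run is printed, as the 150 bases before the start of the gene, to show the promoter elements of such genes. Capitals mark the CCAAT box, the TATA box in the form TATAAA, the octamer in the form ATTTGCAT and the H1 box in the form AAACACA, on either strand, and none of these overlap in the 5 sequences. The positions in GRCh38.p14 are chr6:26017788-26017937 (minus strand) for H1-1, chr6:26033619-26033768 (minus strand) for H2AC4, chr6:26043714-26043863 (minus strand) for H2BC3, chr6:26020301-26020450 (plus strand) for H3C1 and chr6:26027284-26027433 (minus strand) for H4C2.
H1-1: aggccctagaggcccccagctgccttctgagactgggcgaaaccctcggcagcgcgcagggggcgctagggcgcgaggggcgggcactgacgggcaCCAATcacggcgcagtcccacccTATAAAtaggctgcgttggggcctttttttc
H2AC4: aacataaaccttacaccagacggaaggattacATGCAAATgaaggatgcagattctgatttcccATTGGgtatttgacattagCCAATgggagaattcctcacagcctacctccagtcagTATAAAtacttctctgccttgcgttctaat
H2BC3: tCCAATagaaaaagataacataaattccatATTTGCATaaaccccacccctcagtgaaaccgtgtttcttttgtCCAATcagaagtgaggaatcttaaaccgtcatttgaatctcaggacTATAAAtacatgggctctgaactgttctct
H3C1: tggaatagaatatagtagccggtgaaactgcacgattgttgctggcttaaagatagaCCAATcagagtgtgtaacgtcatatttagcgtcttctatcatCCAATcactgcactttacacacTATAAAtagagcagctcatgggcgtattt
H4C2: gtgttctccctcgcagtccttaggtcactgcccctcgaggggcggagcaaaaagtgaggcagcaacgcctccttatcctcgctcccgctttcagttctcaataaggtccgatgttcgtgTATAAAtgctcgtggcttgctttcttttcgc
CCAAT was present in 46 of the 55 histone promoters (83.6%), against 24.4% of the promoters of all 27305 genes in the table. It was found in all 6 H1, 13 H2A, 14 H2B and 11 H3 promoters but in 2 of the 11 H4 promoters. TATAAA was present in 30 of the 55 (54.5%, against 7.05% of all). The octamer, a motif of H2B promoters, was present in 11 of the 14 H2B promoters (78.6%, against 0.985% of all). It was also present in 4 of the 13 H2A promoters (30.8%) and 1 of the 11 H3 promoters (9.09%), and in no H1 or H4 promoter. The H1 box was present in 5 of the 6 H1 promoters (83.3%, against 2.77% of all), the exception being the printed H1-1. A match in letters is a description of the window and not a measured binding site.

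Each region has a density per line, normalised by the authors, and M is the log2 of the DKO over the HCT116 density, so a positive M means higher in DKO. Reads per counting window were recovered from M and the mean log2 density. They are not scaled for the depth of the libraries, so M and not the ratio of reads compares the lines. In the Pol2Ser5 table, for example, DKO windows with more reads than HCT116 windows can have an M below 0. The median member had between 26 (Pol2Ser2) and 112.5 (TotalRNAPol2) reads in DKO and between 31.5 (RAD21) and 86 (H3K27Ac) reads in HCT116. No difference below has a replicate check or a test. The 95% interval beside an M was computed with 1 added to each count, as in M, so it is approximate where reads are few. It covers counting error only and no variation between replicates. Reads copied by PCR are not independent molecules, so the interval can be too narrow even for counting error. A region was called higher or lower in DKO at a 2-fold difference, M of 1 or more or of -1 or less.

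By rank within its own table, polymerase was the leading target of the clusters, in the Pol2Ser5 and TotalRNAPol2 tables and not in the Pol2Ser2 table. Of the 80 Pol2Ser5 members, 12 ranked in the top 1% of the whole table by density, and so did 16 of the 80 TotalRNAPol2 members and 3 of the 165 H3K27Ac members. None of the 113 Pol2Ser2 members did, and the best of them ranked at the top 1.18%. CTCF, RAD21 and SMC1 had none in the top 1% either, and their best members ranked at the top 4.22%, 2.45% and 1.77%.

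**Figure D1:**
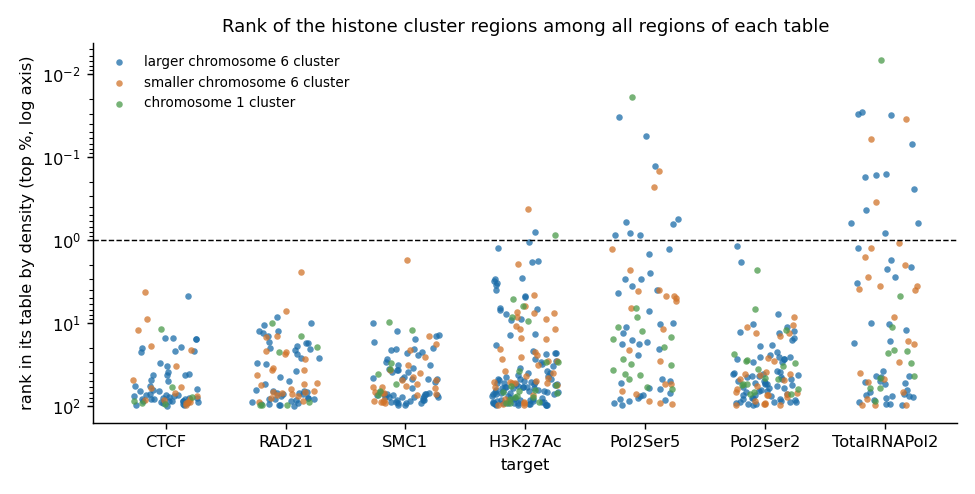
Rank of each histone cluster region in its own table by its higher density, as a top percentage on a log axis with the strongest regions at the top; each point is a region, coloured by cluster, and the dashed line marks the top 1%. Pol2Ser5 and TotalRNAPol2 have 12 and 16 points above the line, whereas no Pol2Ser2 point passes it.

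The strongest polymerase region of the clusters lay on chromosome 1. Pol2Ser5 had 1775 DKO reads and 1173 HCT116 reads at chr1:149856178-149860774, the top 0.0187% of its table, with M -0.33 (95% interval -0.43 to -0.22). TotalRNAPol2 had 1625 DKO reads and 1130 HCT116 reads at chr1:149856542-149860905, the top 0.00678% of its table, with M -1.09 (-1.20 to -0.98). The ranks use the higher density of the lines and were not made for each line apart. The site was occupied in both lines. The 2-fold call of TotalRNAPol2 rested on the authors' scaling, since M was -0.07 with a constant scaling factor. Pol2Ser2 there, at chr1:149857937-149859864, had 122 DKO reads and 127 HCT116 reads, the top 2.30%, with M -0.09 as deposited and 0.31 with a constant factor. H3K27Ac at chr1:149855196-149861758 had 640 DKO reads and 985 HCT116 reads (M -0.57, -0.72 to -0.43).

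In the larger chromosome 6 cluster the densest Pol2Ser5 region, by the mean over both lines, was chr6:26155898-26160172, with 1301 DKO reads and 1053 HCT116 reads (M -0.61, -0.73 to -0.49). For TotalRNAPol2 it was chr6:26122350-26127313, with 1410 DKO reads and 900 HCT116 reads (M -0.88, and 0.05 with a constant factor, so that its direction depended on the scaling). In the smaller cluster chr6:27804545-27808339 led, with 919 DKO and 770 HCT116 Pol2Ser5 reads (M -0.64, -0.78 to -0.50). TotalRNAPol2 at chr6:27804490-27808022 had 905 DKO reads and 887 HCT116 reads (M -1.40, and -0.57 with a constant factor). These leading regions were occupied in both lines and were lower in DKO as deposited.

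Pol2Ser5 and TotalRNAPol2 members less than 500 bases apart were joined into 54 polymerase sites, of which 36 held a summit of both targets. This rule, and the sites named from it, were chosen after the values had been seen. At 11 of these sites the leading Pol2Ser5 region was in the top 1% of its table. There Pol2Ser5 had a median of 919 reads in DKO (lowest 692, highest 1775) and of 691 reads in HCT116 (lowest 363, highest 1173). Its M had a median of -0.38, ranged between -0.76 and 0.41, and was below 0 at 9 of the 11 sites, with no site past 2-fold. TotalRNAPol2 there had a median of 905 reads in DKO (669 to 1625) and of 752 reads in HCT116 (294 to 1130). Its median M was -1.07, with 7 of the 11 sites at -1 or less, and with a constant factor the median was -0.26 and no site was. Pol2Ser2 at the same sites had a median of 46 reads in DKO (30 to 122) and of 86 reads in HCT116 (44 to 172), and ranked between the top 1.18% and the top 25.8% of its table. The sites were chosen by their Pol2Ser5 rank, which can favour a lower rank in another table. H3K27Ac at these sites ranked between the top 0.43% and the top 6.82%, and TotalRNAPol2 between the top 0.00678% and the top 1.25%. Pol2Ser2 ranks at comparable Pol2Ser5 sites outside the clusters were not examined, so the lower Pol2Ser2 ranks cannot be called a trait of the clusters. H3K27Ac was below 0 at 10 of the 11 sites, with a median M of -0.37 (-0.57 to 0.12).

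Of the 36 sites, 7 were at least 2-fold higher in DKO in both polymerase tables (19.4%), against 14.1% of the 49235 such sites in the whole tables, and 1 was lower (background 7.11%). The share past 2-fold is near that background. At a 4-fold threshold, chosen after the values were seen, 6 of the 36 were higher (16.7%), against 4.78% of all sites. The larger cluster held 5 of the higher sites and the lower one, the smaller cluster held 2, and none of the 5 sites on chromosome 1 passed. The polymerase values chose these sites, so the following polymerase values describe them and support nothing further.

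At chr6:26214396-26218900, Pol2Ser5 had 763 DKO reads and 11 HCT116 reads (M 5.21, 4.39 to 6.17). TotalRNAPol2 had 759 DKO and 30 HCT116 reads there (M 3.99, 3.47 to 4.56). The DKO reads of this site were in the range of the 11 heaviest sites, whereas the HCT116 library was almost empty. The leading H3K27Ac region of the site, chr6:26217123-26219004, had 239 DKO and 56 HCT116 reads (M 2.29, 1.86 to 2.73). Pol2Ser2 had 29 DKO and 14 HCT116 reads (M 1.82, 0.88 to 2.82). CTCF had 70 DKO and 13 HCT116 reads (M 2.15, 1.31 to 3.09), RAD21 had 74 DKO and 12 HCT116 reads (M 2.07, 1.21 to 3.04), and SMC1 had 71 DKO and 19 HCT116 reads (M 1.54, 0.81 to 2.33). All 7 targets were thus higher in DKO at this site. The regions given for CTCF, RAD21, SMC1, H3K27Ac, Pol2Ser2 and TotalRNAPol2 were called in DKO only. They were listed through the line in which they were high, which favours a positive M, so the shared direction is a description only.

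At chr6:26043155-26047194, Pol2Ser5 had 555 DKO and 13 HCT116 reads (M 4.53, 3.77 to 5.41), and TotalRNAPol2 had 525 DKO and 26 HCT116 reads (M 3.77, 3.22 to 4.39). H3K27Ac, with 548 DKO and 112 HCT116 reads, was higher as well (M 2.43, 2.13 to 2.73). Pol2Ser2 reached its highest M among the denser members here, 2.38 (1.44 to 3.41), at chr6:26044203-26044619 with 38 DKO and 12 HCT116 reads. CTCF had 60 DKO and 12 HCT116 reads (M 2.02, 1.14 to 3.01). RAD21 (M 0.51, -0.24 to 1.30) and SMC1 (M 0.41, -0.34 to 1.19) had intervals that included 0.

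The site chr6:26016343-26018862 had 444 DKO and 15 HCT116 Pol2Ser5 reads (M 4.02, 3.30 to 4.84), and 409 DKO and 33 HCT116 TotalRNAPol2 reads (M 3.09, 2.58 to 3.64). It carried the CTCF member of highest M, chr6:26017925-26018956, with 181 DKO and 22 HCT116 reads (M 2.88, 2.25 to 3.57). The H3K27Ac member of highest M, chr6:26016100-26016344, lay at its edge, with 181 DKO and 31 HCT116 reads (M 2.76, 2.21 to 3.35), while the acetylated member that overlapped the polymerase region from the neighbouring site had M -0.43. RAD21 had 35 DKO and 6 HCT116 reads (M 1.78, 0.59 to 3.19). The leading Pol2Ser2 region had 24 DKO and 31 HCT116 reads (M 0.33, -0.49 to 1.13). Another Pol2Ser2 region of the site, chr6:26016876-26017061, had 23 DKO and 20 HCT116 reads (M 0.99, 0.08 to 1.90). Only 782 bases away, the next site, chr6:26019644-26023221, was occupied in both lines, with 692 DKO and 540 HCT116 Pol2Ser5 reads (M -0.52) and an M of -0.94 for TotalRNAPol2.

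In the smaller cluster a pair of neighbouring sites 2937 bases apart was higher in DKO. At chr6:27838606-27841754, Pol2Ser5 had 612 DKO and 7 HCT116 reads, the highest M of the denser Pol2Ser5 members (M 5.49, 4.50 to 6.71), and TotalRNAPol2 had 608 DKO and 31 HCT116 reads (M 3.67, 3.16 to 4.23). At chr6:27831932-27835669, Pol2Ser5 had 421 DKO and 9 HCT116 reads (M 4.63, 3.74 to 5.70), and TotalRNAPol2 had 440 DKO and 32 HCT116 reads (M 3.22, 2.71 to 3.78). One acetylated block spanned the pair: all 9 H3K27Ac members between 27831709 and 27842549 on chromosome 6 were past 2-fold, with M between 1.95 and 2.42. They had 86 to 211 reads in DKO and 23 to 59 reads in HCT116. All 9 were called in DKO only, so they were listed through the line in which they were high. Some of them share parts of a 2 kb counting window, so they are not 9 separate measurements. Pol2Ser2 had 28 DKO and 17 HCT116 reads at the first of the pair along the chromosome (M 1.47, 0.58 to 2.41), and 12 DKO and 16 HCT116 reads at the other (M 0.60, -0.56 to 1.73).

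The remaining higher sites were weaker. At chr6:26183815-26185044, Pol2Ser5 had 194 DKO and 13 HCT116 reads (M 3.05, 2.26 to 3.94), and TotalRNAPol2 had 172 DKO and 16 HCT116 reads (M 3.20, 2.47 to 4.01). At chr6:26273054-26273879, Pol2Ser5 had 54 DKO and 13 HCT116 reads (M 1.25, 0.39 to 2.21). TotalRNAPol2 had 77 DKO and 28 HCT116 reads there (M 1.34, 0.70 to 2.00, and 0.83 with a constant factor, which ends the call). The leading H3K27Ac regions of these 2 sites were under 2-fold (M 0.86 and 0.91), while weaker acetylated members beside the second, chr6:26273675-26273884 and chr6:26274228-26274520, had M 1.22 and 1.57.

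**Figure D2:**
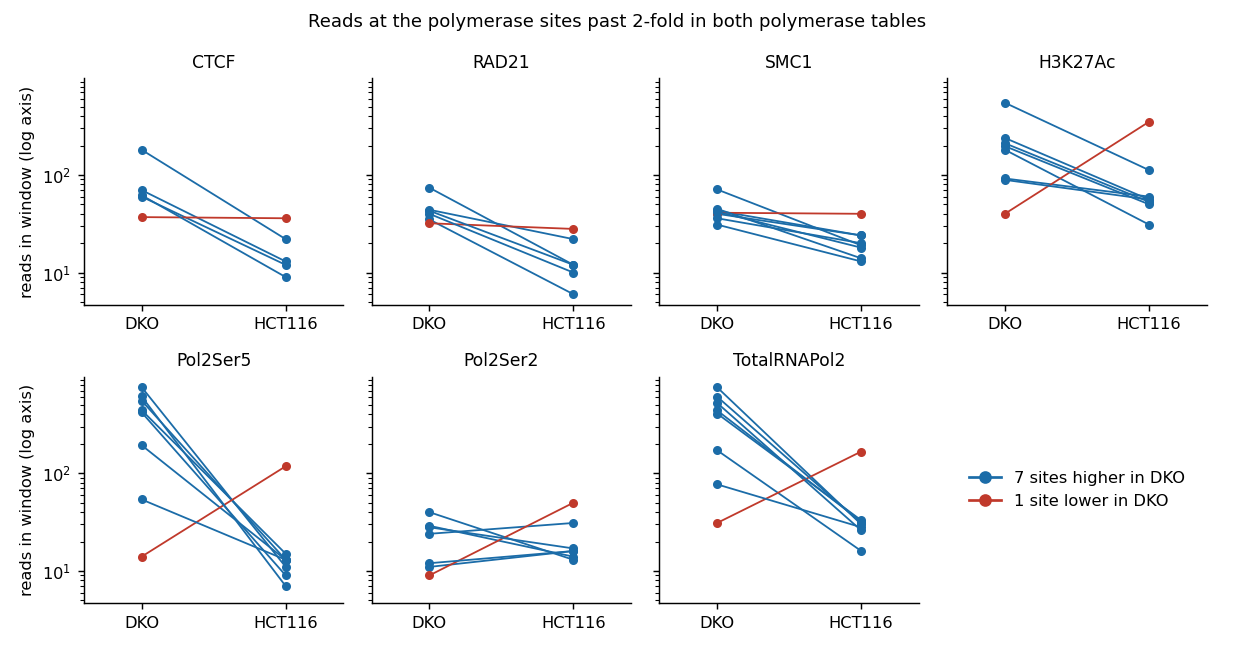
Reads in the counting window, on a log axis, in the DKO library (left) and the HCT116 library (right) of each target at the 8 polymerase sites past 2-fold in both polymerase tables; a line joins the libraries of a site. At the 7 sites higher in DKO, HCT116 had 7 to 15 Pol2Ser5 reads and DKO 54 to 763, while Pol2Ser2 stayed between 11 and 40 reads in DKO.

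Across the 7 higher sites, the leading H3K27Ac region was past 2-fold at 5 of 7, against 55.9% of all such sites in the whole tables that had an H3K27Ac region. CTCF was past 2-fold at 4 of the 4 sites with a CTCF region (59.9% in the whole tables), RAD21 at 4 of 5 (34.4%) and SMC1 at 2 of 7 (34.1%). Pol2Ser2 was past 2-fold at 3 of the 6 sites with a region (70.9%), with a median M of 1.04 as deposited and 0.53 with a constant factor. These numbers of sites are too small to set the clusters apart from other sites of the tables. The leading regions of all 3 architectural proteins at these sites had positive M. All 4 of the CTCF regions were called in DKO only. They were thus listed through the line in which they were high, which favours a positive M.

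The only polymerase site lower in DKO in both tables was chr6:26223496-26226503, 4596 bases from the 763-read site higher in DKO. Pol2Ser5 had 14 DKO and 118 HCT116 reads (M -3.73, -4.61 to -2.95), the lowest M of the denser Pol2Ser5 members, and TotalRNAPol2 had 31 DKO and 167 HCT116 reads (M -2.68, -3.27 to -2.13). H3K27Ac also had its lowest M of the denser members there, with 40 DKO and 350 HCT116 reads (M -2.89, -3.39 to -2.42). Over 6 Pol2Ser2 members at the site and in the 6000 bases after it, DKO had 1 to 9 reads and HCT116 had 25 to 50 reads, with M between -3.09 and -1.56. The 95% counting intervals given for Pol2Ser5, TotalRNAPol2 and H3K27Ac all lay below -1. In contrast, CTCF had 37 DKO and 36 HCT116 reads (M -0.14, -0.83 to 0.56), RAD21 had 32 DKO and 28 HCT116 reads (M -0.28, -1.04 to 0.49), and SMC1 had 41 DKO and 40 HCT116 reads (M -0.27, -0.93 to 0.38). The neighbouring pair of sites therefore differed in opposite directions between the lines for polymerase and acetylation. The intervals of the 3 architectural proteins at the lower site all included 0.

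**Figure D3:**
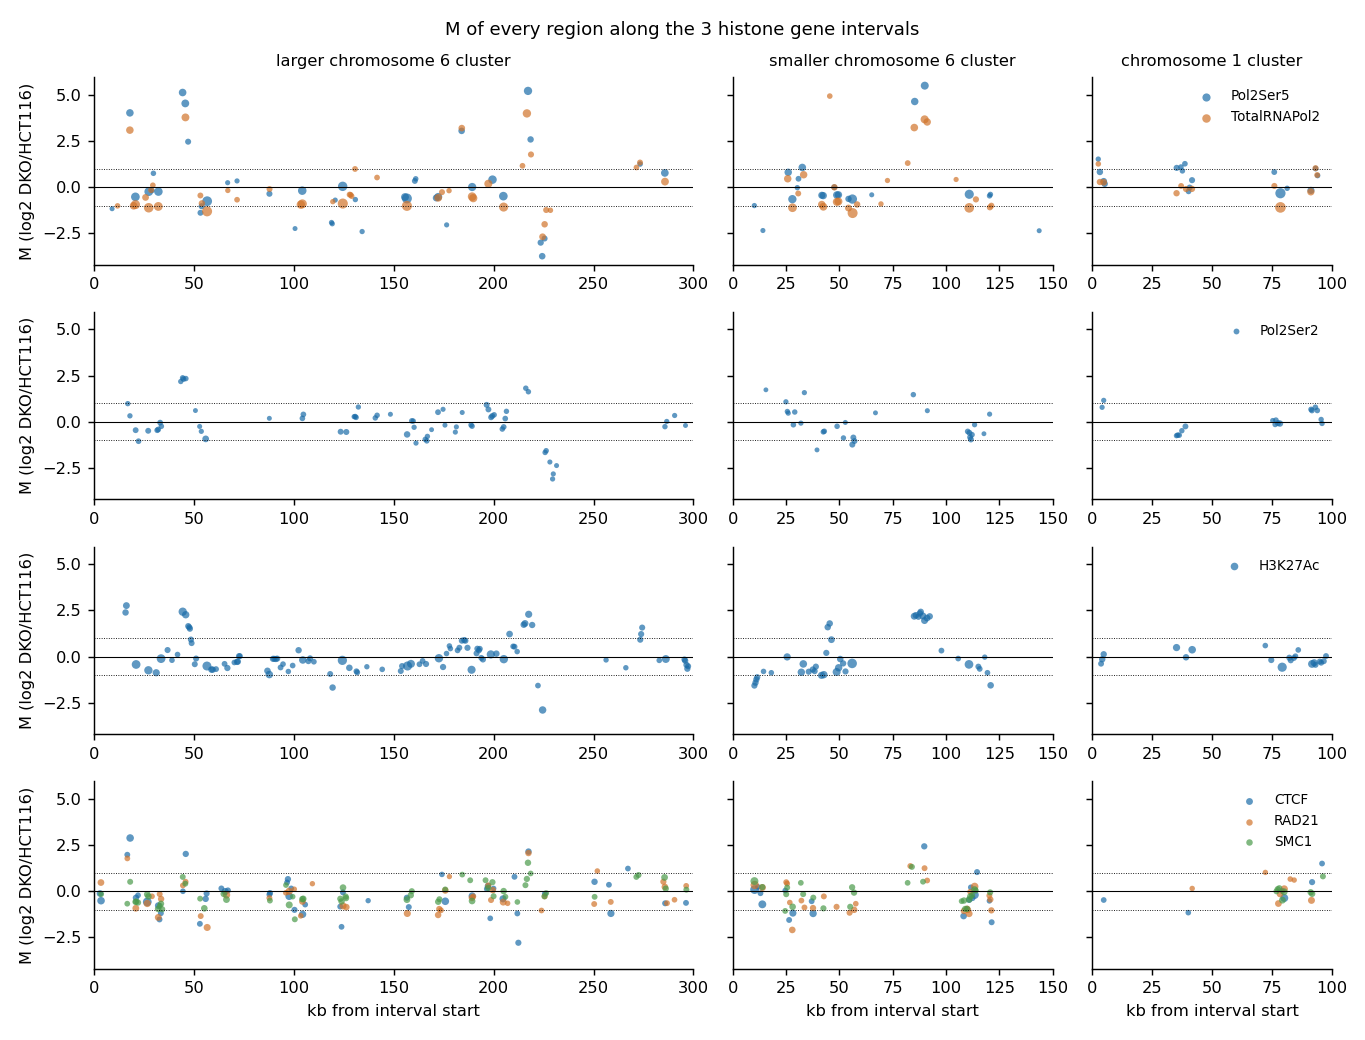
M of every region (points, larger where the density is higher) against the distance of its summit from the start of its interval in kb, for the 3 clusters (columns) and the targets (rows); dotted lines mark a 2-fold difference. Most polymerase points lie near or below 0, a few narrow groups rise to M of 3 to 5.49, and 1 group, near the right of the larger chromosome 6 cluster, falls to -3.73.

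The 28 sites present in both polymerase tables and past 2-fold in neither direction in both made up most of the clusters. Their leading Pol2Ser5 regions had a median M of -0.34 and their H3K27Ac regions one of -0.40. H3K27Ac was below 0 at 25 of the 28 (22 with a constant factor), against 51.6% of the corresponding sites in the whole tables. Within 1 Mb outside the intervals the H3K27Ac median M was also below 0, at -0.25. TotalRNAPol2 had a median M of -0.79 there, and of -0.29 with a constant scaling factor. Pol2Ser2 had a median M of -0.24 over the 25 of these sites that had a region. The medians of all 4 targets at these sites were thus below 0, and they stayed below 0 with a constant factor (-0.25 for Pol2Ser5, -0.30 for H3K27Ac and -0.33 for Pol2Ser2).

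Counted over members, 16 of the 80 Pol2Ser5 regions were higher in DKO (background 14.9%) and 13 were lower (background 21.0%). The members had a median M of -0.18, against -0.00 over all regions. TotalRNAPol2 had 15 of 80 members higher (background 20.7%) and 18 lower (background 10.2%), with a median M of -0.37, against 0.27 over all regions. Pol2Ser2 had 11 of 113 members higher (background 18.6%) and 12 lower (background 10.9%), with a median M of -0.08, against 0.17 over all regions. With a constant factor in place of the line, the median of all regions was -0.02 for TotalRNAPol2 and -0.07 for Pol2Ser2, and the members' medians were -0.34 and -0.31. TotalRNAPol2 then had 9 members higher, and Pol2Ser2 7 higher and 20 lower. The densest Pol2Ser2 members on chromosome 6 were chr6:26054895-26056976 in the larger cluster, with 93 DKO and 172 HCT116 reads (M -0.92, -1.30 to -0.55), and chr6:27860744-27861201 in the smaller cluster, with 41 DKO and 79 HCT116 reads (M -0.59, -1.17 to -0.03).

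On chromosome 1 the Pol2Ser5 median lay on the other side of 0 from those of the chromosome 6 clusters. Its 17 Pol2Ser5 members had a median M of 0.63. The medians were -0.30 over 42 members of the larger and -0.41 over 21 members of the smaller chromosome 6 cluster. Of the 17, 5 were higher in DKO (29.4%, background 14.9%) and none were lower (background 21.0%). The 17 members fell in 5 polymerase sites. The leading Pol2Ser5 regions of these sites had M of 0.32, 1.04, 0.38, -0.33 and -0.17, the densest being the one at -0.33. The 5 higher members had 41 to 129 DKO reads and 8 to 36 HCT116 reads, and the pair named next was picked with the values known. At chr1:149818552-149819608, Pol2Ser5 had 67 DKO and 16 HCT116 reads (M 1.27, 0.48 to 2.13), and TotalRNAPol2, at an overlapping region, had 111 DKO and 88 HCT116 reads (M -0.10, -0.51 to 0.32). At chr1:149872674-149873417 both tables passed 2-fold (M 1.01 for Pol2Ser5 and 1.03 for TotalRNAPol2). The polymerase tables thus gave different values at the first of these gains and like values at the other. None of the 21 H3K27Ac members on chromosome 1 was higher or lower in DKO. All chromosome 6 regions of the Pol2Ser5 table had a median M of -0.19 and all chromosome 1 regions one of 0.00.

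Acetylation of H3K27, found at active promoters and enhancers, was higher in DKO at 25 of 165 members (background 11.0%) and lower at 9 (background 10.4%). Of the 25 higher members, 22 lay within 5 kb of a polymerase site higher in DKO, where 41 of the 165 members lay. The 22 include the 9 members of the block in the smaller cluster, some of which share counting windows. Those 9 and others of the 22 were called in DKO only, so they were listed through the line in which they were high. The sites were themselves chosen as higher in DKO, and no such share was computed for the whole tables, so the count is a description only. The members' median M was -0.18, against -0.05 over all regions and -0.25 over the 500 regions within 1 Mb outside the intervals. The densest acetylated regions were chr6:27803661-27808447 in the smaller cluster, with 892 DKO and 1173 HCT116 reads (M -0.37, -0.50 to -0.24), and chr6:26119983-26127594 in the larger one, with 852 DKO and 1005 HCT116 reads (M -0.20, -0.34 to -0.07). Both lie at leading polymerase regions and were lower in DKO by well under 2-fold.

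Where all 4 targets of active transcription overlapped, the highest mean M was 3.41, at chr6:26043188-26045150 (H3K27Ac 2.43, Pol2Ser5 5.12, Pol2Ser2 2.31, TotalRNAPol2 3.77). The lowest was -2.50, at chr6:26224953-26225629 (H3K27Ac -2.89, Pol2Ser5 -2.77, Pol2Ser2 -1.65, TotalRNAPol2 -2.68). The choice by mean M favours regions where the 4 targets share a direction, and at chr6:26016343-26018487 they did not (H3K27Ac -0.43, Pol2Ser5 4.02).

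CTCF, the zinc finger protein of insulators and domain boundaries, was higher in DKO at 8 of 76 members (background 20.1%) and lower at 16 (background 6.33%). Its median M was -0.26, against 0.26 over all regions, 0.04 over chromosome 6 and -0.11 over the 340 regions within 1 Mb outside the intervals. The cluster median thus lay on the other side of 0 from that of the whole table, and the median of the surrounding region lay on the clusters' side. RAD21, the cleavable cohesin subunit, was higher at 6 of 80 members (background 13.7%) and lower at 15 (background 8.7%; 8 with a constant factor), with a median M of -0.36 against 0.14 over all regions and -0.22 outside the intervals. SMC1, a core cohesin ATPase subunit, was higher at 2 of 92 (background 9.36%) and lower at 2 (background 4.67%), with a median M of -0.16 against 0.16 over all regions and -0.11 outside. Within 1 Mb outside the intervals, 12.1% of CTCF regions were higher and 15.3% lower. The shares there were 10.8% and 15.7% for RAD21, and 5.38% and 9.63% for SMC1.

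**Figure D4:**
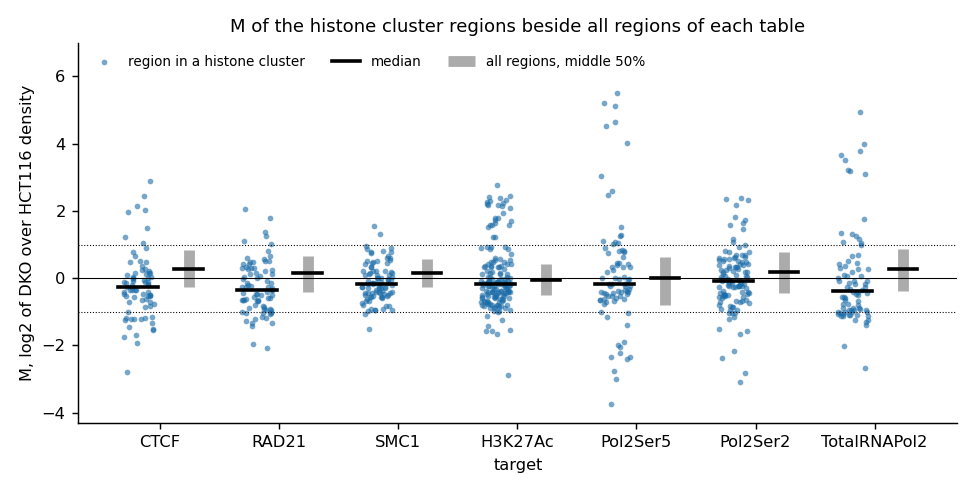
M of the histone cluster regions (points, black line at their median) beside the middle 50% (grey bar) and median (black line) of all regions of each table; dotted lines mark a 2-fold difference. The cluster medians lie below those of all regions for every target, by 0.52 for CTCF.

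Of the 76 CTCF members, 46 (60.5%) shared at least 1 base with both a RAD21 and an SMC1 member. The strongest of them, chr6:27759044-27761202, lay near the edge of the smaller cluster and had 384 DKO and 394 HCT116 reads of CTCF (M 0.09, -0.12 to 0.30, and -0.06 with a constant factor). RAD21 had 317 DKO and 240 HCT116 reads (M 0.34, 0.09 to 0.59) and SMC1 had 256 DKO and 137 HCT116 reads (M 0.55, 0.25 to 0.86). The weak H3K27Ac region over it had 39 DKO and 126 HCT116 reads (M -1.41, -1.96 to -0.89). The CTCF interval at this site included 0, while those of RAD21 and SMC1 lay above it.

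The next, chr6:26026226-26027666, had 246 DKO and 393 HCT116 reads of CTCF (M -0.57, -0.81 to -0.34), with RAD21 at M -0.66 and SMC1 at M -0.17 (-0.65 to 0.32), and it lay over a Pol2Ser5 region with 864 DKO and 552 HCT116 reads (M -0.24). On chromosome 1, CTCF at chr1:149859737-149860686 lay inside the strongest polymerase region and had 171 DKO and 227 HCT116 reads (M -0.37, -0.66 to -0.07). RAD21 there had 152 DKO and 122 HCT116 reads (M 0.12) and SMC1 had 120 DKO and 97 HCT116 reads (M -0.03). The other 5 of the 8 strongest such members had CTCF M between -0.71 (chr6:27763390-27764527, with 134 DKO and 223 HCT116 reads) and -0.19 (chr6:27862764-27864351, with 233 DKO and 281 HCT116 reads). CTCF M was thus below 0 at 7 of the 8, and none passed 2-fold.

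The densest RAD21 and SMC1 members of the larger cluster were a shared site. RAD21 at chr6:26064579-26067007 had 147 DKO and 149 HCT116 reads (M -0.19, -0.53 to 0.14), and SMC1 at chr6:26064772-26066003 had 89 DKO and 78 HCT116 reads (M -0.14, -0.59 to 0.32). Among denser members the lowest values were at chr6:27858122-27858586 for CTCF, with 32 DKO and 75 HCT116 reads (M -1.34, -1.98 to -0.73). For RAD21 it was chr6:27777719-27778553, with 21 DKO and 69 HCT116 reads (M -2.09, -2.85 to -1.38). For SMC1 it was chr6:26031901-26032496, with 42 DKO and 66 HCT116 reads (M -0.96, -1.54 to -0.38). Among these 3 regions the RAD21 difference, within the smaller cluster, was the largest (M -1.96 with a constant factor).

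Larger shares of the architectural protein regions lay over polymerase in the clusters than in the whole tables, a difference for which no test was made. CTCF members overlapped a Pol2Ser5 or TotalRNAPol2 member in 51 of 76 cases (67.1%, against 34.0% of the whole table), RAD21 in 65 of 80 (81.2%, against 41.3%) and SMC1 in 79 of 92 (85.9%, against 45.0%). All 15 RAD21 members lower in DKO were among the 65 that lay over polymerase, and none were among the 15 that lay away from it. In the whole table, 11.2% of RAD21 regions over polymerase and 6.93% of those away from it were lower. The RAD21 median M was -0.44 over polymerase and 0.11 away from it, and in the whole table it was -0.07 and 0.27. For CTCF the medians were -0.35 over polymerase and -0.11 away from it, against 0.33 and 0.22 in the whole table, where the order was the other way. For SMC1 they were -0.17 and -0.15, against 0.10 and 0.21. A higher RAD21 value away from polymerase thus also held in the whole table, and its source was not tested.

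The genes of these clusters include near-identical copies, such as H3C14 and H3C15, H4C14 and H4C15, and H2AC18 and H2AC19 on chromosome 1, and the reads were 75 bases long. How reads with more than 1 best position were treated is not given in the sources used here, so levels at regions that hold such copies are uncertain. Neighbouring members can share a counting window and are not independent.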

How the data were processed

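Reads were aligned with BWA to hg19, per the submitters' processing notes, which list MACS2 for 6 targets and not for TotalRNAPol2, without versions or thresholds. Each deposited table lists the regions of either line or both, with a normalised read density per line, a signal made by the authors, per the file headers. M (log2 ratio) and A (mean log2 density) are the authors' deposited values, and their p-value was not used. Reads were recovered from M and A. M plus a straight line in A gave back whole counts for 100% of values, within 0.05, if 1 was added to every count, in 1 kb windows (CTCF and cohesin) or 2 kb windows (the other targets). The slope of the line was 0.33 for Pol2Ser2, 0.32 for TotalRNAPol2 and 0.04 for Pol2Ser5. The windows were taken to be centred on summits: regions with close summits but distant midpoints differed by a median of 0.16 to 0.23 (log2) in the 2 kb tables, but by 0.87 to 1.04 in the 1 kb tables, where the centre is less clear. A constant scaling factor, the median log2 ratio of regions called in both lines, was an alternative.

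Samples were grouped by the titles' line and target. The 14 immunoprecipitated libraries were used and the 2 inputs were not analysed here. Intervals are Clopper-Pearson 95% intervals on the counts with 1 added to each, and a rank uses the higher density of the lines. At a site, the leading region of a target is that of highest density with its summit in the site, or within 1000 bases for targets other than Pol2Ser5 and TotalRNAPol2. Named regions were, in each table, the highest A in each interval and the highest and lowest M among members at or above the table's median density. The 8 CTCF members of highest A with both cohesin subunits, and the extremes over the 4 active targets, were named too. The members and lists were chosen with earlier results of these data known. Recovery was tested on simulated data. The intervals were simulated only at large totals and without the effect of the added 1, so their coverage at small counts was not tested. Python 3.11.15, pandas 2.3.3 and scipy 1.17.1 were used.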

Additional observations from a re-analysis of the deposited data

How the results depend on the processing

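No paired analysis was possible because each line had 1 library per target. Of the 92 alternative values, 68 stayed within the limits set for them, 23 moved and 1 reversed; the cause was not tested. The Pol2Ser5 median reversed to 0.00401 over members at or above the table's median density. With M recentred on all regions, the medians were -0.52 for CTCF, -0.32 for SMC1 and -0.25 for Pol2Ser2, and the numbers lower in DKO were 8 for SMC1 and 30 for TotalRNAPol2. With a constant factor, the Pol2Ser2 median was -0.31, with 7 higher and 20 lower, RAD21 had 8 lower and TotalRNAPol2 9 higher. Over members called in both lines the TotalRNAPol2 median was -0.78. At 1.5-fold, the numbers lower were 31 (RAD21), 15 (SMC1), 40 (H3K27Ac), 21 (Pol2Ser5), 26 (Pol2Ser2) and 33 (TotalRNAPol2), and those higher were 12 (SMC1) and 23 (Pol2Ser2). The alternatives for polymerase sites were chosen after seeing the data. Sites lower in DKO numbered 8 by Pol2Ser5 alone, 13 by TotalRNAPol2 alone, and 2 with a constant factor or recentred, while sites higher in DKO numbered between 6 and 9 under all 7 alternatives. Requiring cohesin over 50% of a CTCF member left 34 of 46. Windows with 1 to 30 reads, as in Pol2Ser2, carry wide intervals.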

Other observations

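In the smaller chromosome 6 cluster, the polymerase site chr6:27795262-27795611 was listed by TotalRNAPol2 alone. It had 37 reads in DKO and 1 read in HCT116 (M 4.93, 95% counting interval 2.97 to 8.02, and 3.65 with a constant factor). The region was weak, at the top 84.0% of its table. No Pol2Ser5 region lay there. H3K27Ac at chr6:27794855-27795626 had 130 reads in DKO and 44 reads in HCT116 (M 1.79, 1.29 to 2.31), between acetylated regions at chr6:27792080-27793546 (M -0.98) and chr6:27796503-27799118 (M -0.83) that were lower in DKO. In the larger cluster, the CTCF region chr6:26212259-26212621 had 7 reads in DKO and 45 reads in HCT116 (M -2.78, -4.08 to -1.69), the lowest CTCF value of the 76. These regions were chosen after their values were seen.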
